A study of Ovis aries with 16 samples.

Results

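The microRNAs miR-103 and miR-107 were followed in liver and skeletal muscle of sheep whose mothers had or had not received bisphenol A (BPA), an oestrogen mimic used to make plastics. They were taken by name, as the entries MIR103 and MIR107, from the table of 105 miRNAs, and are 2 of 4920 non-coding transcripts in the 4 deposited tables. Small RNA was sequenced from 8 female Suffolk sheep, 1 liver and 1 muscle library per animal, giving 16 libraries. The design asks whether exposure before birth altered non-coding RNA in these tissues in adult life, and it has 4 groups of 4: control liver, BPA liver, control muscle and BPA muscle. In the BPA groups (animals 910, 918, 977 and 984) the dams were injected subcutaneously each day with 0.5 mg/kg BPA in corn oil from gestational day 30 to day 90. In the control groups (animals 902, 908, 924 and 928) the dams received corn oil alone over the same days. The daughters of both kinds were sampled at about 21 months of age, with no treatment of their own other than what all shared: a fast of 48 hours, and oestrus synchronisation by 2 prostaglandin injections 11 days apart, with tissue taken 24 hours after the second. The liver piece was cut at the tip of the left lobe and the muscle piece from the vastus lateralis of the thigh. These were whole pieces of tissue, in which fewer cells of a type and less RNA per cell cannot be told apart.

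MicroRNAs are short RNAs that guide Argonaute proteins to messenger RNAs and lower their translation and stability, and the bases near the 5′ end, the seed, choose the targets. miR-103 and miR-107 share their seed and differ in sequence only near the 3′ end, so their predicted targets are largely the same. Both are made from hairpins inside introns of pantothenate kinase (PANK) genes, whose enzymes begin the synthesis of coenzyme A, the carrier of acyl groups in lipid and glucose metabolism. In mice, raising them in liver or fat impaired glucose handling and silencing them improved insulin sensitivity, through caveolin-1, a membrane protein that stabilises the insulin receptor. In the RefSeq annotation of the sheep assembly ARS-UI_Ramb_v3.0 the MIR103 entry lies within PANK3 and the MIR107 entry within PANK1. Another entry of the table, MIR16B, belongs to a wider group of miRNAs with related seeds, whose best known role is restraint of the cell cycle, and lies within SMC4, a condensin subunit gene. The other names searched for in that group (MIR15, MIR195, MIR424, MIR497, MIR503 and MIR646) matched no entry of the table.

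The libraries differed in depth. Reads assigned to miRNAs ranged from 94393 to 240815 in control liver, from 578150 to 1383538 in BPA liver. Muscle libraries held 471691 to 559705 in controls and 596919 to 1044886 in BPA animals. Control livers also held 29.2 ± 12.9 snRNA reads per 100 miRNA reads (SD, n = 4), against 0.192 ± 0.062 in BPA livers. Tissue identity was clear in each library. MIR133, which is specific to striated muscle, lay between 244661 and 373488 in muscle and between 115 and 717 in liver, and the summed level of the liver-rich MIR194 and MIR148A lay between 40787 and 66109 in liver and between 1311 and 2028 in muscle. Values are deposited normalised counts, that is reads divided by 1 size factor per library, unless stated otherwise.

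Both miRNAs were moderately abundant in every group, and MIR103 was the higher of the pair in every library. By group mean MIR103 ranked 33rd, 33rd, 34th and 34th of 105 miRNAs in control liver, BPA liver, control muscle and BPA muscle, and MIR107 ranked 36th, 36th, 39th and 39th. MIR103 rested on 151 to 506 reads per library in control liver, 1288 to 2444 in BPA liver, 364 to 410 in muscle of controls and 321 to 789 in muscle of BPA animals. MIR107 rested on 108 to 365, 831 to 1593, 142 to 187 and 155 to 316 reads in the same groups. Their seed relative MIR16B stood higher than both, with group means of 1296 ± 361 in control liver, 1464 ± 370 in BPA liver, 1709 ± 175 in control muscle and 1943 ± 294 in BPA muscle (SD, n = 4 each).

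**Figure D1:**
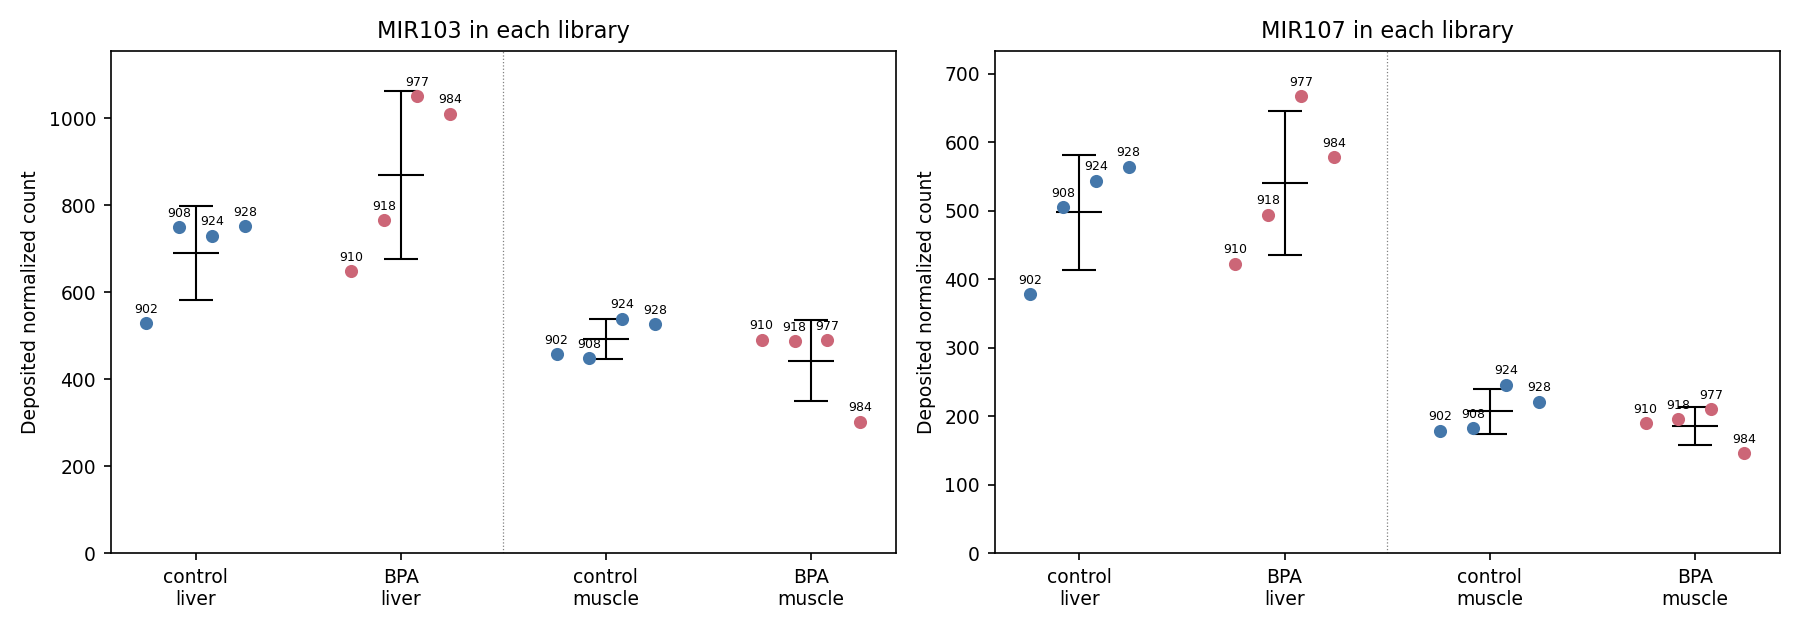
Deposited normalised counts (vertical axis, linear from 0) of MIR103 and MIR107 in each of the 16 libraries, by tissue and treatment; points are libraries marked with the animal's number, and bars are the mean ± SD of 4. Control and BPA points overlap in both tissues for MIR103 and MIR107, BPA muscle 984 lies lowest of all for both, and liver and muscle values carry separate size factors.

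In liver, neither miRNA differed between BPA and control animals beyond the spread between animals. MIR103 was 528, 749, 730 and 751 in control livers 902, 908, 924 and 928, a mean of 690 ± 108 (SD, n = 4). In BPA livers 910, 918, 977 and 984 it was 649, 765, 1050 and 1010, a mean of 868 ± 193. BPA livers 977 and 984 lay well above every control, 918 lay just above the highest control and 910 among the controls, so the groups overlapped. The fitted log2 difference was 0.32 ± 0.25 (SE), with a 95% interval from -0.22 to 0.85 and an adjusted p of 0.502 (limma with Benjamini-Hochberg adjustment over 78 miRNAs).

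MIR107 was 378, 505, 544 and 564 in the same control livers, a mean of 498 ± 83.6, and 423, 494, 667 and 578 in the BPA livers, a mean of 540 ± 106 (SD, n = 4 each). Its highest values were again those of BPA 977 and 984, and the groups overlapped. The fitted log2 difference was 0.11 ± 0.25, with an interval from -0.42 to 0.65 and an adjusted p of 0.903. For MIR16B it was 0.18 ± 0.27, with an adjusted p of 0.763. None of the 3 passed, where 9 of 78 miRNAs did (11.5%), 5 of them higher (6.41%) and 4 lower (5.13%) in BPA liver, and the median log2 difference of all 78 was 0.05. That count was 5 without BPA 910, 4 without BPA 918 and 15 without BPA 984. DESeq2 and edgeR, run on reads recovered from the table, called neither MIR103 nor MIR107.

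The liver differences of the pair depended on the scaling and on whether library codes entered the fit. Each label carries a library code, and the livers with codes up to 79 are only control 902 and BPA 977 and 984. Within that range MIR103 was 528 in the control against 1050 and 1010, and MIR107 was 378 against 667 and 578, with 1 control only. With the code range as a covariate the log2 difference was 0.96 for MIR103 (adjusted p = 0.0156) and 0.71 for MIR107 (adjusted p = 0.0625). The labels do not say what the codes stand for, and their part in the result was not tested. If the 4 tables were given 1 joint size factor per library, the differences were 1.78 (adjusted p = 0.00225) and 1.58 (adjusted p = 0.00516). On that scale the median of all miRNAs moved up by 1.46, and MIR103 stood 0.27 above the median both there and in the deposited scale.

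Markers of other cells in the liver pieces were examined beside these values, each list only in part. MIR122, MIR192, MIR142, MIR223, MIR126, MIR141, MIR429, MIR145 and MIR214 matched no entry. No erythroid marker sought (MIR451, MIR144 and MIR486) matched, so erythroid cells could not be examined. The summed level of the epithelial miRNAs MIR200A, MIR200B and MIR200C lay between 482 and 1367 in control livers and between 1504 and 1965 in BPA livers. Of the 3, MIR200B alone passed, with a mean of 295 ± 118.8 in control and 1177 ± 174 in BPA liver (SD, n = 4 each; adjusted p = 7.08e-04). MIR200A was 526 ± 226 and 456 ± 116, and MIR200C 55.9 ± 40.7 and 77.4 ± 66.0. The stromal and smooth muscle sum of MIR143 and MIR199A lay between 26709 and 40182 in control livers and between 27447 and 52968 in BPA livers. Its members had log2 differences of 0.12 and 0.50 (adjusted p = 0.903 and 0.201, limma). The endothelial miRNA MIR221 lay between 345 and 730 and between 435 and 703, with a log2 difference of 0.36 (adjusted p = 0.502). The leukocyte miRNA MIR150 lay between 199 and 549 and between 231 and 493, and the hepatocyte sum between 45135 and 61597 and between 40787 and 66109, in control and BPA liver respectively. Their part in the values of MIR103 and MIR107 was not tested.

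In muscle, too, neither member of the pair differed between the groups beyond the spread. MIR103 was 458, 449, 539 and 526 in control muscles 902, 908, 924 and 928, a mean of 493 ± 46.2. In BPA muscles 910, 918, 977 and 984 it was 491, 487, 489 and 302, a mean of 442 ± 93.6 (SD, n = 4 each). The first 3 BPA values lay inside the control range and 984 lay far below it. The log2 difference was -0.18 ± 0.18, with an interval from -0.57 to 0.21 and an adjusted p of 0.841 (limma).

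MIR107 was 179, 182, 246 and 221 in control muscle, a mean of 207 ± 32.3, and 190, 195, 210 and 146 in BPA muscle, a mean of 185 ± 27.7. BPA 984 was again the lowest of the 8 and the other 3 lay inside the control range. The log2 difference was -0.16 ± 0.19, with an interval from -0.57 to 0.25 and an adjusted p of 0.841. MIR16B gave 0.18 ± 0.14 with the same adjusted p. None of the 70 miRNAs tested passed in muscle (0%) by limma, edgeR or DESeq2, and 3 had an unadjusted p under 0.05 in limma.

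The library of BPA muscle 984 was the highest or lowest of the 8 muscles for 42 of 70 miRNAs, against 9 to 20 of 70 for each other muscle. Its library code is 97, where those of the other muscles run from 73 to 79. It also had the largest snRNA and snoRNA shares of the muscles, 0.756 and 2.67 reads per 100 miRNA reads. The part of the code and of these shares was not tested. Without muscle 984 the log2 differences were -0.01 for MIR103 and -0.05 for MIR107. The summed level of the stromal and smooth muscle miRNAs MIR143 and MIR199A lay between 7999 and 21246 in BPA muscle and between 15907 and 28471 in control muscle, and its part in these values was not tested.

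**Figure D2:**
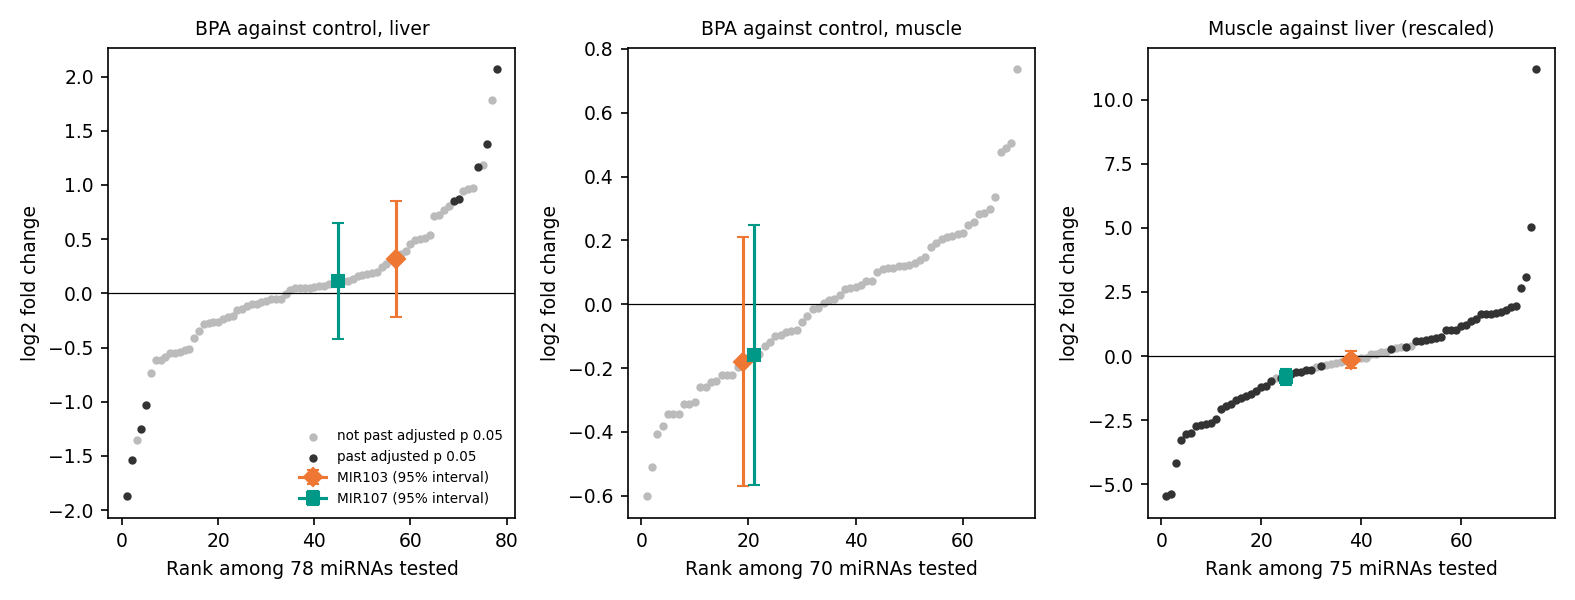
Log2 differences (vertical axis) of all miRNAs tested, ranked from lowest to highest, for BPA against control in liver, BPA against control in muscle, and muscle against liver after rescaling; bars on MIR103 and MIR107 are 95% intervals of the limma fit. Dark points passed an adjusted p of 0.05; the intervals of the pair span 0 in both treatment comparisons, while in the tissue comparison MIR103 lies at the median and MIR107 below it.

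Whether the BPA difference itself differed between the tissues was tested in 1 model over the 16 libraries, without a block for animals. The muscle difference minus the liver difference was -0.50 ± 0.30 log2 units for MIR103, with an interval from -1.12 to 0.12 and an adjusted p of 0.335. For MIR107 it was -0.27 ± 0.29, with an interval from -0.88 to 0.33 and an adjusted p of 0.614. Neither passed, where 2 of 76 miRNAs did (2.63%), a count that was 9 without animal 984 and at most 1 without any other animal. Without animal 984, whose liver was among the highest and whose muscle was the lowest for MIR103, the values were -0.24 and -0.12.

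The pair parted between the tissues. Because the deposited size factors were set within each tissue, the miRNA table was first rescaled over the 16 libraries together. On that scale MIR107 was lower in muscle and MIR103 did not pass the test. Rescaled MIR107 was 310, 424, 438 and 465 in control livers and 315, 433, 545 and 481 in BPA livers, listed in the same animal order as above. In muscle it was 224, 229, 302 and 249 in controls and 239, 240, 274 and 172 in BPA animals. Every muscle lay below every liver, which was also the case, in one direction or the other, for 54.7% of the 75 miRNAs tested.

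The log2 difference of MIR107, muscle minus liver, was -0.81 ± 0.15, with an interval from -1.13 to -0.49, a fold of 0.570 and an adjusted p of 8.02e-05 (limma). It passed in the control animals alone, at -0.70 ± 0.21 (adjusted p = 0.00694), and in the BPA animals alone, at -0.93 ± 0.21 (adjusted p = 8.21e-04). Both contrasts came from the same fit over the 16 libraries and share its spread, so their errors are not those of each group's own animals. The fit did not use the pairing of tissues within animals. With edgeR on recovered reads the difference in controls was -0.48 and did not pass (adjusted p = 0.0565). Differences between the tissues were common: 57 of 75 miRNAs passed (76%), 27 higher (36%) and 30 lower (40%) in muscle. In controls alone 72% passed and in BPA animals alone 66.7%. That split was 17 higher and 46 lower on the deposited scale, and 9 higher and 64 lower as a share of miRNA reads.

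Rescaled MIR103 was 434, 629, 588 and 619 in control livers and 484, 671, 858 and 841 in BPA livers. In muscle it was 575, 565, 661 and 593 in controls and 618, 600, 636 and 357 in BPA animals. The tissues overlapped, with BPA livers 977 and 984 at the top and BPA muscle 984 at the bottom. Its log2 difference was -0.14 ± 0.16, with an interval from -0.47 to 0.19 and an adjusted p of 0.428. In controls alone the difference was 0.09 ± 0.22 (adjusted p = 0.762) and in BPA animals -0.37 ± 0.22 (adjusted p = 0.144).

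The position of MIR103 depended on the scale. It was -0.72 on the deposited scale (adjusted p = 2.09e-04), -1.52 as a share of miRNA reads (adjusted p = 3.03e-08) and 0.07 with edgeR (adjusted p = 0.686). Relative to the median of all miRNAs tested, which moved by -0.59, -1.39 and 0.19 between these scales and the rescaled one, MIR103 stood between 0.00 and 0.02 on each of them. MIR107 stood between -0.67 and -0.66 relative to that median. These positions average over the treatments. On the same scales MIR103 stood between 0.12 and 0.17 relative to the median in controls alone, and between -0.32 and -0.09 in BPA animals alone.

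MIR16B stood apart from both. Its rescaled level was 1064 ± 285 in control liver, 1190 ± 272 in BPA liver, 2083 ± 264 in control muscle and 2409 ± 289 in BPA muscle (SD, n = 4 each). The log2 difference was 1.02 ± 0.15 (adjusted p = 4.41e-06), higher in muscle. As a share of miRNA reads the direction turned, to -0.36 (adjusted p = 0.035). Relative to the median of all miRNAs MIR16B was 1.15 to 1.17 higher on every scale run. On the rescaled table the 3 entries of this seed group held 1 that was higher, 1 that was lower and 1 that did not pass. Of all 75 miRNAs 36% were higher and 40% lower, so this split is near the general share.

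**Figure D3:**
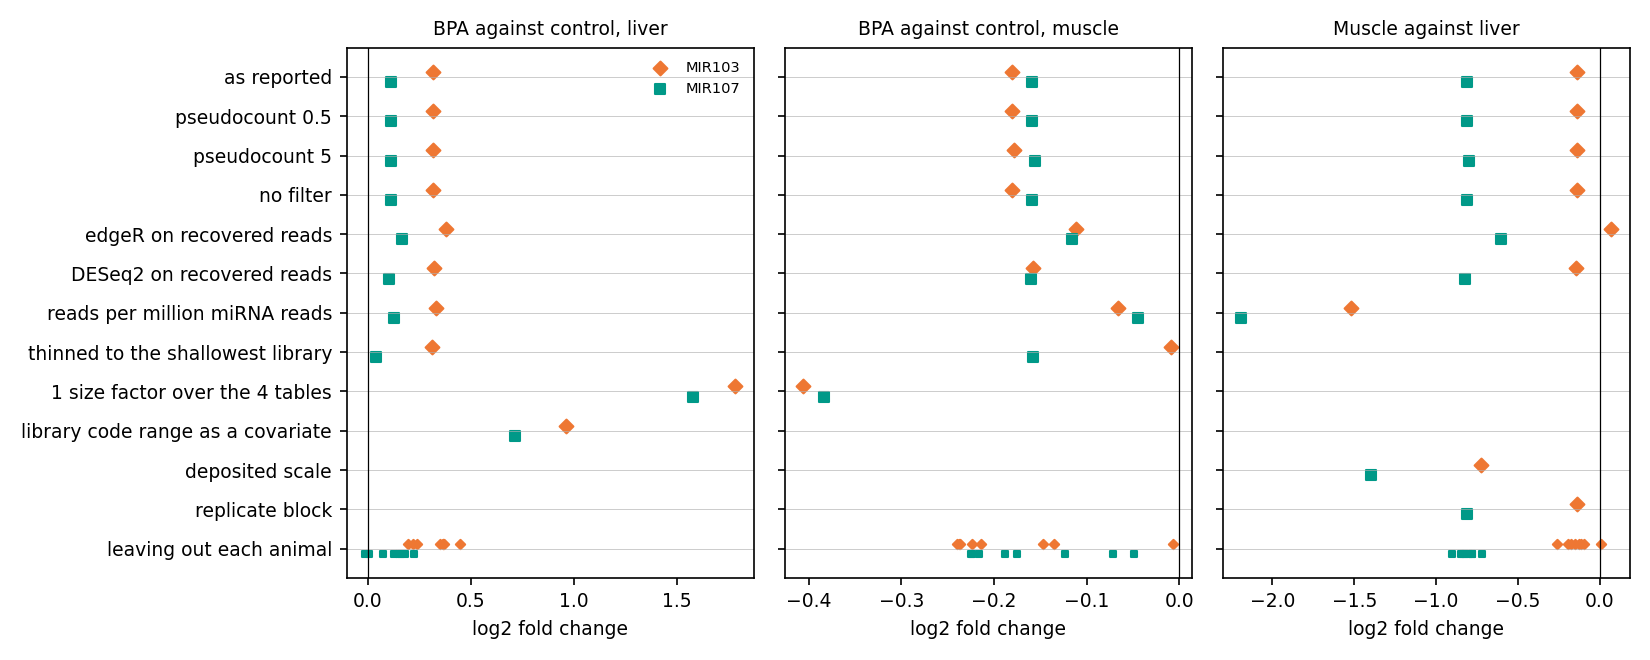
Log2 differences of MIR103 and MIR107 (horizontal axis) in liver, in muscle and between tissues, for the reported fit and each other way of processing (vertical axis). In the tissue panel both move with the scaling while MIR107 keeps to the left of MIR103; in the liver panel the joint size factor and the library codes move both to the right.

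The ratio of MIR103 to MIR107 reads within a library needs no size factor. It was 1.40, 1.48, 1.34 and 1.33 in control livers 902, 908, 924 and 928, a mean of 1.39 ± 0.0697, and 1.53, 1.55, 1.57 and 1.75 in BPA livers 910, 918, 977 and 984, a mean of 1.601 ± 0.0985. In control muscle it was 2.56, 2.46, 2.19 and 2.38, a mean of 2.40 ± 0.157, and in BPA muscle 2.59, 2.50, 2.33 and 2.07, a mean of 2.37 ± 0.227 (SD, n = 4 each). Every muscle had a higher ratio than every liver. A ratio of reads is not a molar ratio, because adapters are joined to different RNAs with different efficiency, so only its change between libraries is compared.

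From liver to muscle of the same sheep the ratio rose in 8 of 8 animals. The mean log2 change was 0.68, a 1.597-fold change from 1.50 ± 0.138 in liver to 2.39 ± 0.182 in muscle (SD, n = 8). The exact two-sided sign-flip permutation test gave p = 0.0078, the smallest that 8 animals allow, and 0.0312 after Benjamini-Hochberg adjustment over the 4 ratio tests made. Counting intervals (95%, Clopper-Pearson, counting error only) overlapped in 4 of 64 liver and muscle pairs of libraries. The change is small for a pair of miRNAs: among 2775 pairs of tested miRNAs the median absolute change of the log2 ratio between tissues was 1.68, and 49.9% of pairs did not overlap between tissues.

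**Figure D4:**
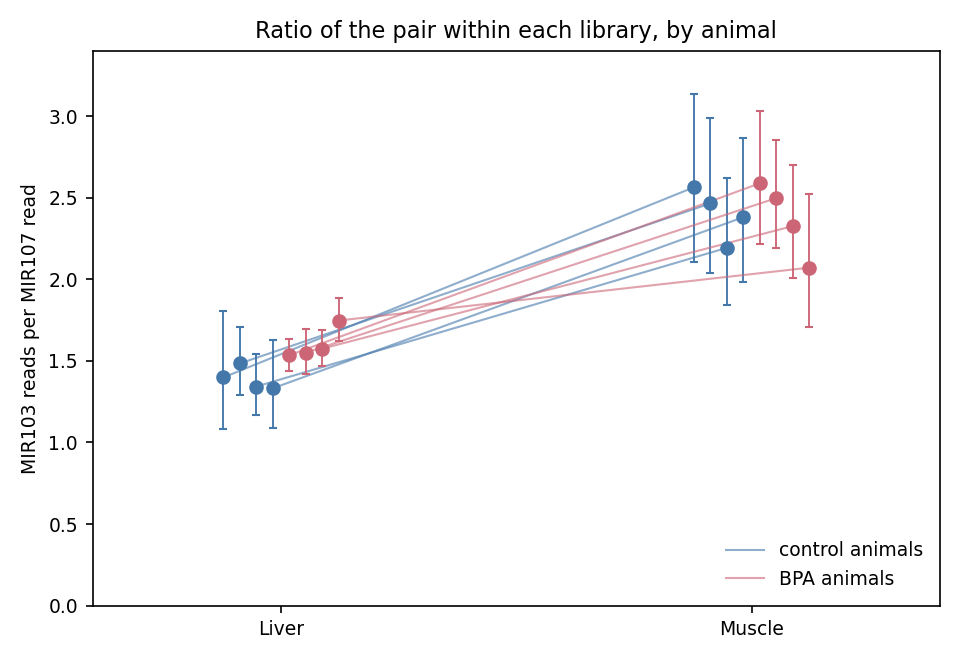
MIR103 reads per MIR107 read (vertical axis) in the liver and muscle of each animal, joined by a line per animal and coloured by treatment; bars are 95% Clopper-Pearson intervals of counting error. All 8 lines rise from liver (1.33 to 1.75) to muscle (2.07 to 2.59), least steeply in BPA 984.

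In liver the 4 BPA ratios lay above the 4 control ratios, a mean log2 difference of 0.20. The exact two-sided permutation test gave p = 0.0286, the smallest that 4 against 4 allow, and 0.0571 after adjustment over the 4 tests, so it did not pass. Groups that do not overlap were common in this tissue: 20.5% of 3003 pairs of miRNAs were as separate. The median absolute difference over all 3003 pairs was 0.578. The counting intervals of control and BPA livers overlapped in 15 of 16 pairs of libraries. Within library codes up to 79 the ratio was 1.40 in control 902 and 1.57 and 1.75 in BPA 977 and 984.

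In muscle the BPA and control ratios overlapped, with a log2 difference of -0.02 (exact permutation p = 0.8, adjusted 0.8), where 2.48% of pairs did not overlap. The rise from liver to muscle was 0.87, 0.73, 0.71 and 0.84 log2 units in controls 902, 908, 924 and 928, and 0.75, 0.69, 0.56 and 0.25 in BPA animals 910, 918, 977 and 984. The smallest rise was that of 984. The difference between these groups was -0.23 (exact two-sided permutation p = 0.114, adjusted p = 0.152) and did not pass.

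Within each tissue MIR103 and MIR107 kept closer to each other than to any other miRNA measured. Likeness was taken as the SD of the log2 ratio of 2 miRNAs over libraries, which is 0 when their ratio never changes. Over the 8 livers the SD for the pair was 0.13, the lowest of 77 miRNAs for either member, where the medians were 0.53 for MIR103 and 0.50 for MIR107. Over the 8 muscles it was 0.11, the lowest of 69, where the medians were 0.41 and 0.39. These are descriptions over 8 libraries of a tissue, whose size factors nearly cancel in a ratio. Reads too short to tell the pair apart could be counted for either member, for both or for neither. The sources used here do not say how such reads were assigned.

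The next nearest differed by tissue. In liver MIR17, from the cell-cycle miR-17/92 cluster, was next to MIR103 at 0.23, followed by the hepatocyte-rich MIR148A at 0.29, and for MIR107 the next was the imprinted MIR127 at 0.20, followed by MIR17 at 0.23. In muscle the imprinted MIR379 was next to MIR103 at 0.13, close to the value of the pair itself, followed by MIR30B at 0.19, and for MIR107 the next were MIR30B at 0.175 and MIR30C at 0.19. Over the 16 libraries, where the tissue difference enters, the SD for the pair was 0.37, rank 3 for both. MIR17 (0.31) and MIR199A (0.34) were then nearer to MIR103, and MIR17 (0.27) and MIR127 (0.33) nearer to MIR107. MIR16B, with the related seed, was 28th in likeness to MIR103 and 32nd to MIR107 in liver, and 37th and 26th in muscle.

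**Figure D5:**
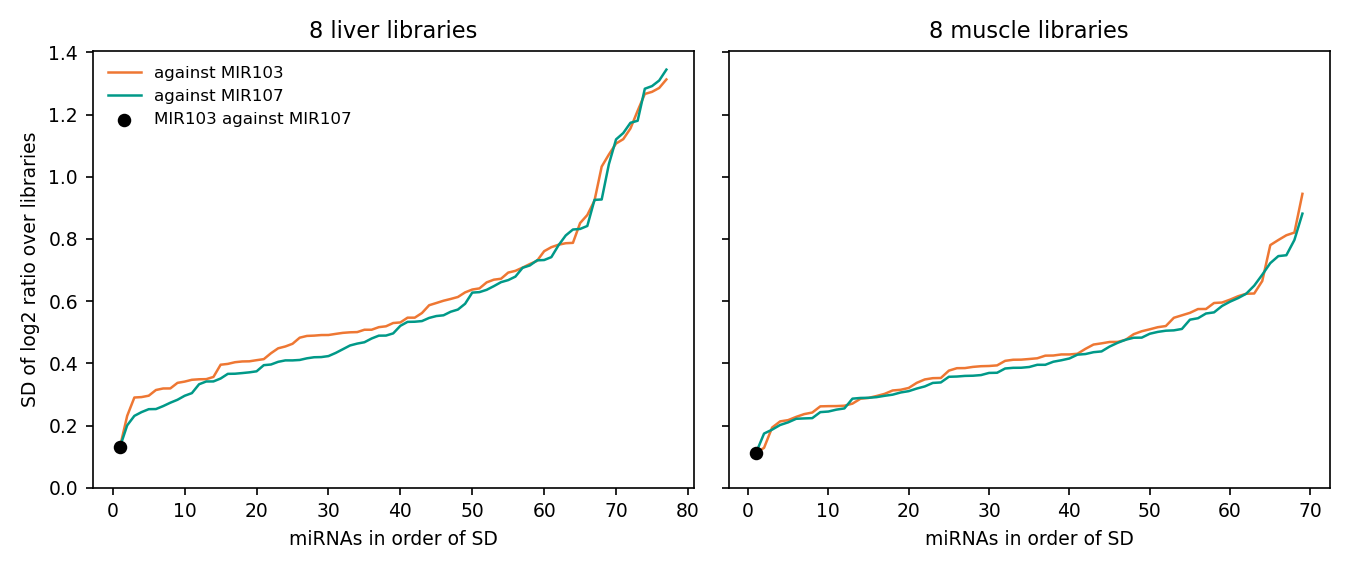
SD of the log2 ratio of each other miRNA to MIR103 and to MIR107 (vertical axis), with miRNAs in order of that SD (horizontal axis), over the 8 livers and over the 8 muscles. The black point, MIR103 against MIR107, is the lowest of both curves, at 0.13 in liver and 0.11 in muscle.

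Among other miRNAs with reported roles in insulin action or glucose metabolism lack of a call was common, as it was among all miRNAs tested. The list names MIR33, MIR34A, MIR122, MIR126, MIR130, MIR145, MIR222, MIR223, MIR320, MIR375, MIR378, MIR802 and MIR9 matched no entry and were not tested. Of 20 list members tested, the pair included, 1 fell in BPA liver and none rose, where 5.13% of all miRNAs tested fell and 6.41% rose, with a median log2 difference of -0.00 against 0.05 for all 78 miRNAs. The member that fell was MIR26B, whose family has been tied to hepatic insulin signalling in mice, at -1.03 ± 0.20 (adjusted p = 0.0055). DESeq2 on recovered reads called 2 lower and edgeR 1. In muscle none of the 20 passed by limma, edgeR or DESeq2, with a median of -0.04 against 0.01. In the comparison of BPA differences between tissues none passed by the same tools, where 2.63% of all miRNAs did by limma. In limma MIR26B had an unadjusted p under 0.05 in each of these comparisons, and in the last 2 it alone did. In liver MIR29A had one too, at -0.52 ± 0.18 (unadjusted p = 0.0142, adjusted p = 0.079). As a share of miRNA reads 1 member passed in the comparison of BPA differences between tissues. It was MIR26B at 0.87 (adjusted p = 0.0221), against 0.77 on the deposited scale (adjusted p = 0.108).

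Between tissues, on the rescaled table, 10 of the 20 were higher in muscle, 3 were lower and 7 did not pass, where 36% of all 75 miRNAs were higher and 40% lower. MIRLET7B, of the let-7 family known to dampen insulin receptor signalling, was higher by 1.79, and the copies MIR181A-2 and MIR181A-1, whose mature RNA targets the deacetylase SIRT1, by 1.65 and 1.62. The rest of the higher members were MIR26A and the let-7 entries MIRLET7A, MIRLET7C, MIRLET7D, MIRLET7F, MIRLET7G and MIRLET7I. Most of the higher members were thus of 1 family. MIR29B-1 and MIR29B-2, which did not pass, had identical values, so list members are not independent. The lower members were MIR107, MIR26B at -0.40 and MIR21, a widely expressed miRNA induced in inflammation, at -1.94. The median log2 difference was 0.29 against -0.14 for all 75. The count depended on the scale, with 6 higher and 11 lower on the deposited scale and 2 higher and 14 lower as a share of miRNA reads, while the list's median stood 0.42 to 0.44 above that of all miRNAs on every scale run. MIR107 was lower on each of these scales.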

How the data were processed

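Small RNA libraries were made with a NEBNext kit from column-purified RNA, per the labels' protocols. STAR 2.6.0c, featureCounts 1.6.1 and cutadapt 3.2 appear in the submitters' processing notes, with no roles. The build, the annotation and the normalisation tool are not named there. The files deposited by the authors hold a signal, normalised counts: reads over a size factor that differs by library, table and tissue. In the miRNA table every value gave whole reads within a tolerance of 0.001. Those recovered reads served the depth, the ratio and the alternatives in edgeR 4.0.16 and DESeq2 1.42.0 only.

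The test was limma-trend (limma 3.58.1, R 4.3.3) on log2 of the deposited value plus 1, a scale that understates the change of low miRNAs. It took miRNAs with a mean of at least 5, two-sided, with Benjamini-Hochberg adjustment over all miRNAs tested and a threshold of 0.05. The tests were checked on simulated data. Tissues were compared after median-of-ratios rescaling over the 16 libraries. Ratios were tested by exact permutation (Python 3.11.15, scipy 1.17.1). Each replicate number is an animal per the labels, so liver and muscle are paired. The correlation of their deviations from the group means over 70 miRNAs ran from -0.73 (animal 984) to 0.44 (animal 977). The reported limma fits over both tissues did not use this pairing. It entered the replicate-block alternative and the ratio changes within animals. With the block the fitted correlation within animals was -0.198 for the tissue difference and -0.179 for the BPA effect by tissue. The smallest chi-square per degree of freedom between replicates was 18.2, so none was a repeat. The lncRNA, snoRNA and snRNA tables entered only the joint size factor and the shares of reads.

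Members and lists were chosen with earlier results of these data known. The text names the pair, its seed group, the 3 nearest miRNAs per member and set of libraries, up to 4 insulin-list members past the threshold per comparison, and tissue markers. A few more insulin-list members are named to describe a count. Names of the let-7 family were matched as MIRLET7. All 105 miRNA names matched RefSeq, which was used for names and host genes only. The mature sequences were not used here.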

Additional observations from a re-analysis of the deposited data

Results flagged for a closer look

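In 2 of 12 groups examined (4 groups, for MIR103, MIR107 and their ratio) 1 library stood far from the other 3. Chance gives about 1 in 20 for a group taken by itself. The 12 are not independent, since the ratio is made from MIR103 and MIR107, so their count cannot be set against that rate. In control liver, MIR103 was 528 in animal 902 against 730 to 751 in the others. In BPA muscle, MIR103 was 302 in animal 984 against 487 to 491 in the others. Liver 902 was the highest or lowest of the 8 livers for 32 of 78 miRNAs, fewer than BPA liver 910 with 40 of 78. Muscle 984, the only muscle with a library code outside 73 to 79, was the highest or lowest of the 8 muscles for 42 of 70. The cause was not tested.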

How the results depend on the processing

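Of 331 alternative values, 289 were classed as unchanged. For a difference this meant the same direction and side of the threshold, and for a count of miRNAs past the threshold, a similar size. The 16 counts for BPA in muscle, all 0, are among them. In liver the count of miRNAs past the threshold, 9, was 68 with 1 size factor over the 4 tables and 4 to 15 leaving out 1 library, lowest without BPA 918 and highest without BPA 984. Liver MIR103 was 1.78 with the joint size factor and 0.96 with library codes as a covariate. The latter compares BPA 977 and 984 with control 902 only. Liver MIR107 was 1.58 with the joint size factor and -0.012 to 0.23 leaving out 1 library, lowest without control 902. The count for the difference between tissues in BPA response, 2, was 1 with edgeR, 66 with the joint size factor, 1 with the replicate block of animals and 0 to 9 leaving out 1 animal, highest without 984. With the joint size factor MIR103 was -2.19 and MIR107 -1.96 there.

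Between tissues MIR103 was 0.0702 with edgeR, -1.52 as a share of miRNA reads, -0.72 on the deposited scale and -0.26 to 0.00561 leaving out 1 animal. In controls it was -1.32, -0.47 and -0.0155 to 0.17 under the last 3 of these, and MIR107 was -0.48 with edgeR. In BPA animals MIR103 was -1.72, -0.97 and -0.61 to -0.0785, lowest and past the threshold without 910 (adjusted p = 0.0297). The ratio in muscle was -0.0647 to 0.0424 leaving out 1 animal, and its change from liver to muscle 0.65 to 0.74. That change then missed the threshold, with an adjusted p of 0.0571 or 0.0625, since 7 animals allow no exact p under 0.0156. The replicate block changed no call of the pair. For MIR107 between tissues its adjusted p was 2.76e-04. Causes not named were not tested. Depth limits the ratio most in control liver 902, with 151 and 108 reads.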
